A study of Mus musculus with 10 samples.

Results

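The thioredoxin system and a group of stress genes tied to the transcription factor NRF2 were examined in mouse muscle. The genes are *Txn1*, *Txn2*, *Txnrd1*, *Txnrd2*, *Txnip* and *Srxn1* of the thioredoxin system, and *Nfe2l2*, *Keap1*, *Hmox1* and *Sqstm1* of the NRF2 pathway. They were chosen by gene symbol, matched to the Ensembl identifier of each row, and all 10 were found among the 49315 genes of the count table. RNA came from the gastrocnemius, a calf muscle, of 10 male C57BL6J mice exposed to cigarette smoke for 16 weeks on 5 days per week. By the series description the muscle was taken 72 h after the final exposure, and the study's text gives a wider interval that ends there. Smoke averaged 220 ± 80 mg/m3 (mean ± SD). There were 5 AHRfl mice, which carry loxP sites in the gene of the aryl hydrocarbon receptor (*Ahr*) and are littermates without Cre, and 5 AHRmko mice. AHRmko mice carry the same floxed gene together with the HSA-MCM transgene, in which the human *ACTA1* promoter drives a MerCreMer recombinase in skeletal muscle fibres. By the study's methods, the knockout was induced with injected tamoxifen before the smoke exposures began. Those methods do not say whether the AHRfl littermates were also given tamoxifen. Tamoxifen releases the recombinase into the nucleus, so the deletion is directed to muscle fibres and not to the other cells of the tissue. Every library is from a smoke-exposed mouse, so the comparison is between genotypes under smoke and shows nothing of smoke against air. The labels do not give an age for each mouse, and each library is named here as the labels name the mouse, for example AHRfl-12.

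Thioredoxins are small proteins that reduce disulfide bonds in other proteins, with *Txn1* coding for the cytosolic form and *Txn2* for the mitochondrial form. Thioredoxin reductases restore them with electrons from NADPH, TXNIP binds reduced thioredoxin and blocks it, and sulfiredoxin, the product of *Srxn1*, repairs overoxidized peroxiredoxins. NRF2, the product of *Nfe2l2*, is held by KEAP1 and degraded until oxidants or electrophiles modify KEAP1, after which NRF2 enters the nucleus and turns on genes with antioxidant response elements, *Txnrd1*, *Srxn1*, *Hmox1* and *Sqstm1* among them. AHR and NRF2 both respond to components of smoke, and the question for these genes is whether their mRNA levels differ when muscle fibres lack AHR.

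The DNA just before the starts of these genes was searched for such elements. Promoter sequence was taken from RefSeq for GRCm38.p6, and 9 of the 10 genes matched, all but *Hmox1*, with 11 promoters because *Txnrd1* has several starts. The 250 bases before the start are shown for the genes whose levels the results turn on, 5′ to 3′ on the strand of the gene. In *Nfe2l2*, *Srxn1* and *Txnrd1*, capitals mark matches to TGANNNNGC, a loose form of the antioxidant response element. In *Txnip*, capitals mark CACGAG, the half-site of its carbohydrate response element.
Nfe2l2, chr2:75704664-75704913, minus strand: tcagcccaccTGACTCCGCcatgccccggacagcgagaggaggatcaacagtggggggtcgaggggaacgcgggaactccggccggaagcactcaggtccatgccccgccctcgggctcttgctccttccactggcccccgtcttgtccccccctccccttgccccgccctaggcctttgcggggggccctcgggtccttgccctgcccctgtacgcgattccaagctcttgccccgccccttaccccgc
Srxn1, chr2:152105274-152105523, plus strand: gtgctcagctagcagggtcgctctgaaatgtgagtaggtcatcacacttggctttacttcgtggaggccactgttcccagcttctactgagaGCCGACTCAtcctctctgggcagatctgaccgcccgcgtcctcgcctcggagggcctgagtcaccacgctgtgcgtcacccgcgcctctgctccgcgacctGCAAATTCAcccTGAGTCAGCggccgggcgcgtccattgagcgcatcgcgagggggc
Txnrd1, chr10:82858956-82859205, plus strand: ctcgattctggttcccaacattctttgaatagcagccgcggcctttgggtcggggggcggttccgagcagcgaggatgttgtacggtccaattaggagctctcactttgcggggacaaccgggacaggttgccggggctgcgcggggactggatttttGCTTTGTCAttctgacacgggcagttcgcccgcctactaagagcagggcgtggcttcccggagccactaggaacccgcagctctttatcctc
Txnip, chr3:96557707-96557956, plus strand: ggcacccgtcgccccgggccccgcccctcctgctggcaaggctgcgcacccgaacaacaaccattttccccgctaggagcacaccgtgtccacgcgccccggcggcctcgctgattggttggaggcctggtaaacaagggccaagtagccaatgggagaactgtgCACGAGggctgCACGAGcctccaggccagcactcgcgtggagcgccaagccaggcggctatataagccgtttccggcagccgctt

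Both strands were searched. The strict form TGACNNNGC, every match of which is also a match to TGANNNNGC, was in 1 of the *Txnrd1* promoters, as GCTTTGTCA on the strand shown, and in that of *Nfe2l2*, as TGACTCCGC 240 bases before the start. It was in 10.2% of the 32851 mouse promoters of the same length. The *Srxn1* promoter held 3 matches to the loose form, the last of them TGAGTCAGC, 45 bases before the start, and this form was in 35.2% of all promoters. Among the 9 genes it was found in 5, *Srxn1*, *Nfe2l2*, *Txnrd1*, *Txn2* and *Keap1*, in 6 of the 11 promoters, and it was not found in those of *Txn1*, *Txnrd2*, *Txnip* and *Sqstm1*. CACGAG was in 5.37% of all promoters. It stood 2 times in *Txnip*, with 5 bases between the copies, and 1 time in *Sqstm1*, 26 bases before its start. GCGTG, the core of the element that AHR binds, was in promoters of *Txn1*, *Txnrd1*, *Txnip*, *Srxn1* and *Keap1*, and in 28.2% of all promoters. A match describes the letters in this window only, and binding was not measured.

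The libraries held 30393035 to 36500548 counts in AHRfl mice and 35038167 to 37954388 in AHRmko mice. Each level is in CPM, which scales the reads counted on a gene to a common library size after TMM normalization. A floor of 3 counts corresponds to between 0.0787 and 0.0926 CPM, which covers counting error only. *Ahr* itself was at 2.02 ± 0.681 CPM (SD, n = 5) in AHRfl and 1.58 ± 0.443 CPM (SD, n = 5) in AHRmko mice, with overlapping groups, and its counts sum all exons, so loss of the floxed exon cannot be read from them. *Esr1*, part of which is in the transgene, was between 15.93 and 18.98 CPM in AHRfl and between 267.7 and 677.6 CPM in AHRmko mice, without overlap. AHRfl-33 and AHRmko-19 had 25494 and 23833 genes with a count, against 21296 to 22973 in the others. Every mouse had 1852 to 2723 counts of the Y-linked *Ddx3y*, but AHRfl-11, AHRfl-15, AHRfl-33, AHRmko-9 and AHRmko-22 also had 44 to 75 counts of *Xist*, against 0 to 3 in the other 5. Nothing in the labels says that mice of a group came from separate litters or cages, and p-values measure the spread between these mice.

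No gene of the thioredoxin system or of the NRF2 group differed between AHRfl and AHRmko muscle once p-values were adjusted over all genes. All 10 passed the filter on low counts, and 0 of the 10 had an adjusted p under 0.05 (edgeR quasi-likelihood test, Benjamini-Hochberg over 14714 genes), against 0.0068% of all genes tested, which is *Esr1* alone. At an unadjusted p under 0.05 there was 1 of the 10, *Txnrd1*, against 6.61% of all genes tested. DESeq2 also called 0 of the 10. In 0 of the 10 did the 5 AHRfl mice and the 5 AHRmko mice separate without overlap, which 1.4% of all genes tested did. *Txnrd1*, *Srxn1*, *Nfe2l2* and *Hmox1* had a higher estimate in AHRmko mice and the other 6 a lower one. The median log2 fold change was -0.06, and over all genes tested it was 0.0056. Adjusted p-values of the 10 ran from 0.744 to 0.965.

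**Figure D1:**
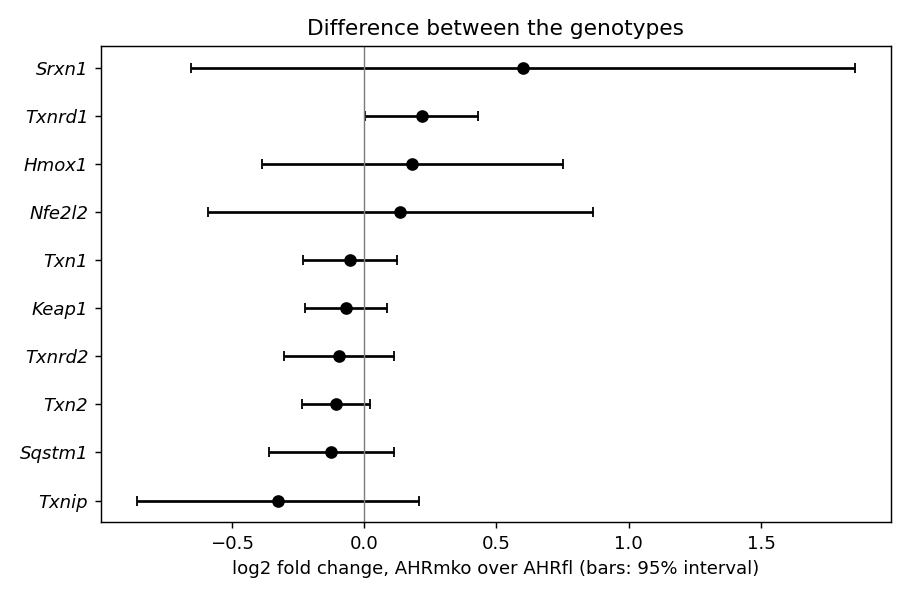
Log2 fold change of each gene in AHRmko over AHRfl muscle (horizontal axis), with points for the estimate and bars for the 95% interval from edgeR. The interval of *Txnrd1* lies just above 0, from 0.0046 to 0.43, those of the other 9 genes include 0, and that of *Srxn1* is the widest, from -0.65 to 1.85.

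Compared per length of exon (RPKM, CPM divided by the joined length of all annotated exons of the gene in kilobases), *Sqstm1* and *Txnip* had the highest mRNA levels of the group. Over the 10 mice *Sqstm1* was at 246.3 ± 33.1 RPKM (mean ± SD) and *Txnip* at 219.1 ± 65.9 RPKM, and their ranges overlapped. *Txn1* followed at 36.2 ± 3.30 and *Txn2* at 34.6 ± 2.06 RPKM, whose ranges also overlapped, and both lay below every value of *Txnip*. *Srxn1* (21.6 ± 15.9 RPKM), *Keap1* (19.3 ± 1.49 RPKM), *Nfe2l2* (14.6 ± 5.59 RPKM) and *Txnrd1* (11.4 ± 1.67 RPKM) came next. In that order *Txn2* and *Srxn1*, *Srxn1* and *Keap1*, *Keap1* and *Nfe2l2*, and *Nfe2l2* and *Txnrd1* overlapped in their ranges. The mitochondrial reductase *Txnrd2* (5.36 ± 0.581 RPKM) and *Hmox1* (4.69 ± 1.54 RPKM) were the lowest, with overlapping ranges. This order depends on the exon length used, for example 4208 bases for *Txn2* and 1051 for *Txn1*. In CPM *Txn2* was well above *Txn1*, at 151.1 against 38.73 in AHRfl mice. Which transcripts of a gene were expressed was not tested. This tissue is a mixture, and a lower level cannot be told apart from fewer cells of a type that expresses the gene. For *Txnip*, *Keap1* and *Sqstm1*, another gene on the opposite strand shares 19.4%, 10.9% and 17.3% of the exon length. These genes are *Gm15441*, *Gm16754* and *Mrnip*, with 13 to 43, 29 to 47 and 60 to 97 counts per mouse. The study's methods say that counting followed strand if the library was strand-specific, but not whether it was, so reads from the shared stretches are uncertain.

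**Figure D2:**
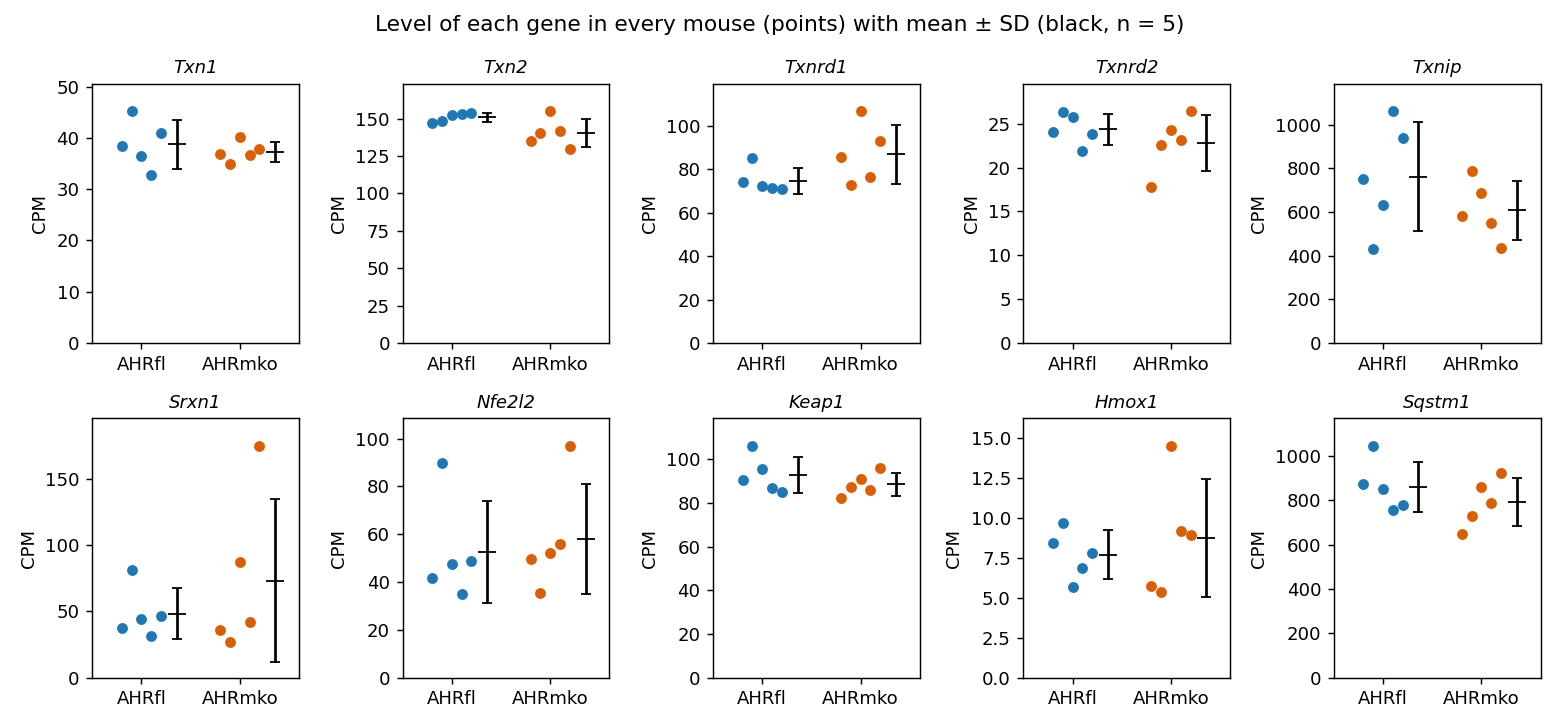
Level of the 10 genes in CPM (vertical axes, from 0) in each of the 5 AHRfl and 5 AHRmko mice (points), with the mean and SD of each genotype in black. The groups overlap in every panel, and the highest *Srxn1* point, 174.7 CPM, is AHRmko-34.

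*Txn1*, the cytosolic thioredoxin (ENSMUSG00000028367, chr4:57943373-57956411, minus strand), was nearly even across mice. AHRfl mice 11, 12, 13, 15 and 33 had 38.4, 45.2, 36.4, 32.7 and 40.9 CPM, and AHRmko mice 8, 9, 19, 22 and 34 had 36.8, 34.9, 40.3, 36.7 and 37.9 CPM. Both the highest and the lowest mouse were AHRfl. The means were 38.7 ± 4.69 and 37.3 ± 1.96 CPM (SD, n = 5 each), a log2 fold change of -0.05 (SE, the standard error of the fit, 0.0818, 95% interval -0.23 to 0.12, edgeR adjusted p = 0.939). The interval allows levels from 0.853 to 1.09 times those of AHRfl. The *Txn1* estimate was 0.0069 without AHRfl-12, so its direction rested on that mouse, and -0.11 without AHRfl-15.

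*Txn2*, the mitochondrial thioredoxin (ENSMUSG00000005354, chr15:77915047-77929006, minus strand), varied least of the 10. In the mouse order given for *Txn1*, AHRfl mice had 147, 148, 153, 153 and 154 CPM, and AHRmko mice had 135, 141, 155, 142 and 129.9 CPM. The 4 AHRmko mice other than AHRmko-19 were below every AHRfl mouse, and AHRmko-19 was above them all. The means were 151 ± 3.03 and 140.3 ± 9.37 CPM (SD, n = 5 each) and the log2 fold change was -0.11 (SE 0.06, 95% interval -0.24 to 0.02, edgeR adjusted p = 0.806). A two-sided exact permutation test over the 252 assignments of the mice, whose smallest p is 0.00794, gave p = 0.0556. The SD within genotypes on the log2 scale was 0.0702, and 3.21% of the genes tested had a smaller one.

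*Txnrd1*, the cytosolic thioredoxin reductase and an NRF2 target (ENSMUSG00000020250, chr10:82833951-82897712, plus strand), had the smallest p-value of the group. AHRfl mice had 74.1, 85.2, 72.3, 71.3 and 71.0 CPM and AHRmko mice had 85.5, 72.8, 107, 76.5 and 93.3 CPM. Among AHRfl mice 4 lay within a narrow band and AHRfl-12 stood above it, whereas 3 AHRmko mice were above every AHRfl mouse and the other 2 were among them. The means were 74.8 ± 5.93 and 87.0 ± 13.6 CPM (SD, n = 5 each). The log2 fold change was 0.22 (SE 0.0989, 95% interval 0.0046 to 0.43, unadjusted p = 0.0459, adjusted p = 0.744 from edgeR), and the exact permutation test gave p = 0.0714. The *Txnrd1* estimate was 0.14 without AHRmko-19.

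*Txnrd2*, the mitochondrial reductase (ENSMUSG00000075704, chr16:18426384-18479073, plus strand), ranged from 21.9 to 26.3 CPM in AHRfl and from 17.8 to 26.4 CPM in AHRmko mice. Its log2 fold change was -0.09 (SE 0.0961, 95% interval -0.30 to 0.11, edgeR adjusted p = 0.896). The lowest mouse was AHRmko-8 and the highest AHRmko-34, and the *Txnrd2* estimate was -0.02 without the former and -0.15 without the latter.

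The balance of the reductase and its substrate was compared as a ratio of counts within each library, which no normalization of library size can move. The ratio of *Txnrd1* to *Txn1* was 1.93, 1.88, 1.98, 2.18 and 1.74 in AHRfl mice and 2.32, 2.08, 2.65, 2.09 and 2.46 in AHRmko mice. Only AHRfl-15 among the AHRfl mice reached into the AHRmko range. On the log2 scale the mean ratio was 0.95 ± 0.119 in AHRfl and 1.21 ± 0.151 in AHRmko muscle (SD, n = 5 each), a difference of 0.25 (two-sided exact permutation test, p = 0.0238). This was 1 of 6 ratios compared, and the adjusted p over the 6 was 0.143. Leaving out single mice gave differences between 0.20 and 0.30. The mitochondrial pair, *Txnrd2* to *Txn2*, differed by 0.0069 (exact permutation p = 0.96). The other ratios differed by -0.24 for *Txnip* to *Txn1*, 0.37 for *Srxn1* to *Txn1*, 0.20 for *Nfe2l2* to *Keap1* and -0.06 for *Sqstm1* to *Keap1*, with exact permutation p-values of 0.389 or above. Without AHRfl-15 the *Txnip* to *Txn1* difference was -0.04, and without AHRmko-34 that of *Nfe2l2* to *Keap1* was 0.03 and that of *Srxn1* to *Txn1* was -0.03, so the direction of the latter rested on 1 mouse. With medians in place of means, *Srxn1* to *Txn1* differed by 0.0092. The *Sqstm1* to *Keap1* difference was -0.02 without AHRmko-8.

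**Figure D3:**
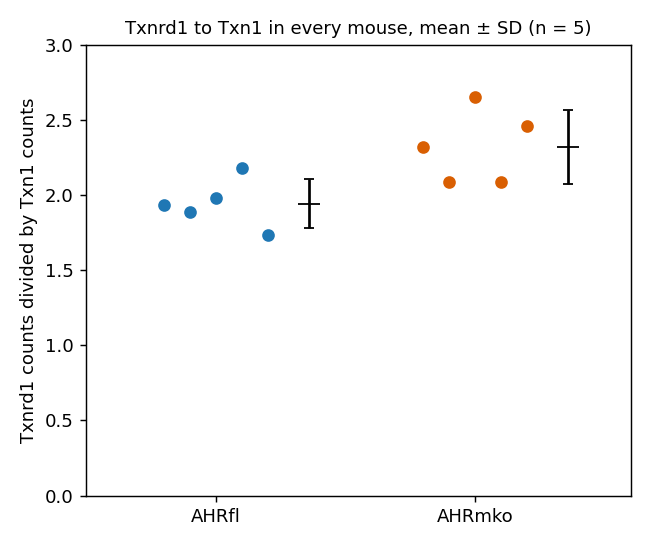
*Txnrd1* counts divided by *Txn1* counts (vertical axis, from 0) in each mouse of the 2 genotypes (points), with mean and SD in black. AHRfl mice lie between 1.74 and 2.18 and AHRmko mice between 2.08 and 2.65.

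*Txnip*, the thioredoxin inhibitor and an arrestin-like protein that also limits glucose uptake (ENSMUSG00000038393, chr3:96557957-96561883, plus strand), varied widely between mice within each genotype. AHRfl mice had 748, 428, 629.5, 1060 and 938 CPM and AHRmko mice had 580, 788, 685, 550.1 and 433 CPM. AHRfl-15 and AHRfl-33 were the highest, and AHRfl-12 was the lowest of all, next to AHRmko-34. The means were 761 ± 249.6 and 607 ± 135 CPM (SD, n = 5 each). The log2 fold change was -0.33 (SE 0.24, 95% interval -0.86 to 0.21, edgeR adjusted p = 0.845), with an exact permutation p of 0.31, so a level from 0.552 to 1.16 times that of AHRfl is within the interval. Without AHRfl-15 the estimate was -0.18.

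*Srxn1*, sulfiredoxin and an NRF2 target (ENSMUSG00000032802, chr2:152105516-152111376, plus strand), varied most. AHRfl mice had 37.4, 81.0, 44.6, 31.8 and 46.7 CPM and AHRmko mice had 35.7, 26.8, 87.1, 42.1 and 174.7 CPM. AHRmko-34 was the highest, followed by AHRmko-19 and AHRfl-12, and the other 7 mice were at 46.7 CPM or less. The highest mouse was 6.52 times the lowest, and 98.0% of the genes tested had a smaller SD within genotypes. The means were 48.3 ± 19.2 and 73.3 ± 61.3 CPM (SD, n = 5 each). The log2 fold change was 0.60 (SE 0.549, 95% interval -0.65 to 1.85, edgeR adjusted p = 0.884), with an exact permutation p of 0.603. Without AHRmko-34 it was -0.01, so the direction rested on that mouse.

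*Nfe2l2*, which encodes NRF2 (ENSMUSG00000015839, chr2:75675513-75704641, minus strand), had 41.8, 89.8, 47.6, 35.2 and 48.8 CPM in AHRfl mice and 49.7, 35.2, 52.1, 55.8 and 96.9 CPM in AHRmko mice. AHRmko-34 and AHRfl-12, 1 of each genotype, stood above the other 8 mice, none of which passed 55.8 CPM. The means were 52.6 ± 21.5 and 57.9 ± 23.1 CPM (SD, n = 5 each). The log2 fold change was 0.14 (SE 0.322, 95% interval -0.59 to 0.87, edgeR adjusted p = 0.965). It was -0.13 without AHRmko-34 and 0.42 without AHRfl-12.

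*Keap1*, the adaptor through which NRF2 is degraded (ENSMUSG00000003308, chr9:21229730-21239361, minus strand), differed by 1.29 times between the highest and the lowest mouse. AHRfl mice had 90.4, 106, 95.5, 87.0 and 85.0 CPM and AHRmko mice had 82.4, 87.3, 91.1, 86.0 and 96.2 CPM. AHRfl-12 was the highest and AHRmko-8 the lowest. The means were 92.8 ± 8.41 and 88.6 ± 5.27 CPM (SD, n = 5 each), with a log2 fold change of -0.07 (SE 0.0717, 95% interval -0.22 to 0.09, edgeR adjusted p = 0.903), which was -0.01 without AHRfl-12.

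*Sqstm1*, which encodes the autophagy receptor p62, a protein that binds KEAP1 (ENSMUSG00000015837, chr11:50199366-50210827, minus strand), had 876, 1045, 853, 757.5 and 779.9 CPM in AHRfl mice. AHRmko mice had 648, 732, 862, 789 and 926 CPM. As for *Keap1*, AHRfl-12 was the highest and AHRmko-8 the lowest. The log2 fold change was -0.12 (SE 0.109, 95% interval -0.36 to 0.11, edgeR adjusted p = 0.879). Without AHRfl-12 it was -0.05, and without AHRmko-34 it was -0.19.

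*Hmox1*, heme oxygenase, which breaks down heme (ENSMUSG00000005413, chr8:75093621-75100589, plus strand), was the lowest of the group in CPM, with 197 to 507 counts per mouse. In RPKM its range overlapped that of *Txnrd2*. AHRfl mice had 8.42, 9.69, 5.67, 6.84 and 7.79 CPM and AHRmko mice had 5.73, 5.35, 14.5, 9.15 and 8.94 CPM. AHRmko-19 stood above all others. The log2 fold change was 0.18 (SE 0.258, 95% interval -0.39 to 0.75, edgeR adjusted p = 0.933), and it was -0.07 without AHRmko-19.

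*Srxn1*, *Nfe2l2*, *Hmox1* and *Txnip* differed by 6.52, 2.76, 2.71 and 2.48 times between the highest and the lowest mouse, and a few mice held most of the extremes over the 10 genes. AHRfl-12 was above the mean of the 10 mice in 9 of the 10 genes, with the highest *Txn1*, *Keap1* and *Sqstm1* and the lowest *Txnip*. AHRmko-19 was above the mean in 9 of the 10 and had the highest *Txn2*, *Txnrd1* and *Hmox1*. AHRmko-34 was above the mean in 8, with the highest *Txnrd2*, *Srxn1* and *Nfe2l2* and the lowest *Txn2*. In contrast, AHRmko-8 and AHRmko-9 were above the mean in 1 gene each. AHRfl-12, AHRmko-19 and AHRmko-34 were all among the mice with 0 to 3 *Xist* counts. So was AHRmko-8, while AHRmko-9 had 65 *Xist* counts. The relation of these levels to *Xist* was not tested.

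**Figure D4:**
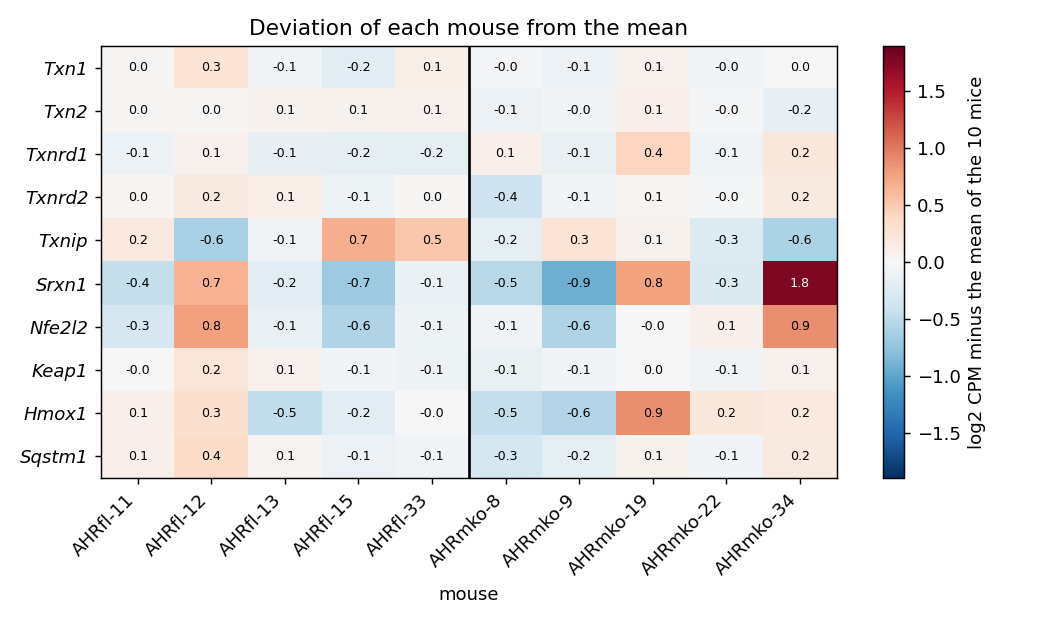
Deviation of each mouse (columns) from the mean of the 10 mice for each gene (rows), in log2 CPM, with red for above and blue for below the mean and a black line between the genotypes. The strongest cell, 1.8, is *Srxn1* in AHRmko-34, and AHRfl-12 and AHRmko-34 share high *Srxn1* and *Nfe2l2* with low *Txnip*.

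*Nfe2l2* mRNA went with *Srxn1* and against *Txnip* from mouse to mouse. Over the 10 mice, the log2 levels of *Srxn1* and *Nfe2l2* had a Pearson r of 0.875 (permutation p = 0.00081, adjusted p = 0.0122 over 45 pairs of genes) and a Spearman rho of 0.794 (permutation p = 0.00887, adjusted p = 0.0665). Leaving out the 2 mice at the greatest distance from the *Srxn1* median gave r = 0.940, and within the 5 mice of a genotype it was 0.997 in AHRfl and 0.892 in AHRmko. *Txnip* and *Nfe2l2* had an r of -0.868 (permutation p = 0.00136, adjusted p = 0.0153) and a rho of -0.867 (permutation p = 0.00236, adjusted p = 0.0354). That relation was -0.782 without the 2 mice farthest in *Txnip*, -0.884 within AHRfl and -0.939 within AHRmko mice. The mice highest in *Nfe2l2* were AHRfl-12 and AHRmko-34, which are of different genotypes. Leaving out mice by *Srxn1* kept AHRfl-12, and leaving them out by *Txnip* kept AHRmko-34. No r was computed without both, so how far these relations with *Nfe2l2* rest on them was not tested. *Keap1* and *Sqstm1* rose and fell together, with r = 0.922 (permutation p = 0.00019, adjusted p = 0.00608) and rho = 0.842 (permutation p = 0.00403, adjusted p = 0.0363), and r was 0.822 without the 2 farthest mice. *Txnrd2* and *Sqstm1* had r = 0.890 (permutation p = 0.00027, adjusted p = 0.00608) and rho = 0.915 (permutation p = 0.00065, adjusted p = 0.0293), and r was 0.861 without the 2 farthest mice.

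**Figure D5:**
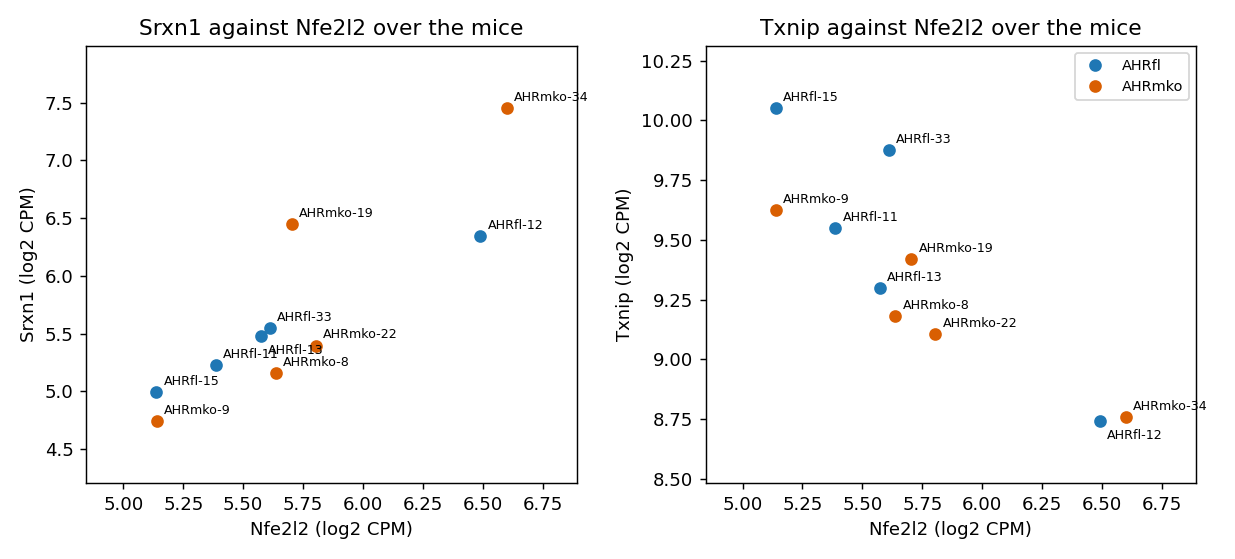
*Srxn1* (left) and *Txnip* (right) against *Nfe2l2*, all in log2 CPM, with 1 point per mouse coloured by genotype. *Srxn1* is higher in mice with more *Nfe2l2* (r = 0.875) and *Txnip* is lower (r = -0.868), and AHRfl-12 and AHRmko-34 lie at the high end of *Nfe2l2* in both panels.

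These were the 4 of the 45 pairs with an adjusted p under 0.05 for r, and for *Srxn1* and *Nfe2l2* the adjusted p for rho was above it. By rho, *Txnrd2* also passed with *Keap1* (rho = 0.879, permutation p = 0.00164, adjusted p = 0.0354) and with *Srxn1* (rho = 0.842, permutation p = 0.00381, adjusted p = 0.0363). The r of these pairs was 0.774 (permutation p = 0.0149, adjusted p = 0.118) and 0.596 (permutation p = 0.0749, adjusted p = 0.176), and without the 2 farthest mice it was 0.835 and 0.711. At an unadjusted p under 0.05 for r there were 14 pairs, 12 with a positive and 2 with a negative r. The NRF2 targets *Txnrd1* and *Srxn1* had r = 0.737 and rho = 0.491 (permutation p = 0.0158 and 0.156, adjusted p = 0.118 and 0.260), and r was 0.484 without the 2 farthest mice. *Nfe2l2* and *Keap1* had r = 0.672 and rho = 0.370 (permutation p = 0.0364 and 0.294, adjusted p = 0.144 and 0.414). That r was -0.03 without the 2 farthest mice, so the relation rested on them.

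Marker mRNA of fibre and cell types in the muscle pieces also differed from mouse to mouse, and several of these genes moved with it by Pearson r. The makeup of the pieces itself was not measured. The summed level of 8 slow-fibre markers, such as *Myh7*, ran from 94.8 to 2019 CPM in AHRfl and from 252 to 2395 CPM in AHRmko mice. Endothelial markers (6 genes) ran from 140.5 to 208 and from 152 to 269 CPM, and myofibre markers (8 genes) from 130000 to 176900 and from 145700 to 174500 CPM. Macrophage markers (8 genes) ran from 22.5 to 37.6 and from 20.2 to 45.3 CPM, and erythroid markers (6 genes) from 105 to 322 and from 143 to 483 CPM. Fibroblast and fibro-adipogenic progenitor markers (6 genes) ran from 247.5 to 443.5 and from 252 to 481 CPM, and adipocyte markers (6 genes) from 9.83 to 61.6 and from 7.36 to 59.7 CPM. Schwann cell markers (6 genes) ran from 63.4 to 115 and from 35.4 to 108 CPM, with a lower estimate in AHRmko mice for all 6. The estimate was higher in AHRmko mice for all 8 slow-fibre and all 6 endothelial markers, and for 7 of the 8 myofibre markers. It was also higher for 6 of 8 macrophage, 5 of 6 erythroid, 4 of 5 tested adipocyte and 2 of 6 fibroblast and fibro-adipogenic progenitor markers. In each of these lists 0 genes had an unadjusted p under 0.05, against 6.61% of all genes tested. Every gene of these lists had counts, and in each list the genotypes overlapped. Of 90 relations between 1 of these 8 marker lists, or total counts, and 1 of the 10 genes, 5 had an adjusted p under 0.05 for r. The endothelial sum went against *Sqstm1* (r = -0.903, permutation p = 0.00038, adjusted p = 0.0234), *Txnrd2* (r = -0.859, permutation p = 0.00052, adjusted p = 0.0234) and *Keap1* (r = -0.837, permutation p = 0.00192, adjusted p = 0.0346). The slow-fibre sum went against *Keap1* (r = -0.843, permutation p = 0.00145) and the myofibre sum against *Txnip* (r = -0.855, permutation p = 0.0018), both with an adjusted p of 0.0346. Spearman rho of the 5 relations was between -0.855 and -0.806, with permutation p-values between 0.00278 and 0.00696 and adjusted p-values between 0.110 and 0.125. Without the 2 mice farthest in the marker sum, r was between -0.81 and -0.731. For *Nfe2l2*, r was 0.723 with the myofibre sum and -0.688 with the endothelial sum, and for *Srxn1* these values were 0.648 and -0.766. For *Srxn1* with the Schwann cell sum r was -0.714, and it was 0.058 without the 2 farthest mice, so it rested on them. None of those 5 had an adjusted p under 0.05. The part of the muscle's makeup in the relations among the 10 genes was not tested.

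The rest of the redox machinery was read from lists of known genes. Among 27 other thioredoxin-fold and thiol repair genes, 0 had an adjusted p under 0.05, and 5 had an unadjusted p under 0.05, 1 higher and 4 lower in AHRmko mice, against the 6.61% of all genes tested (median log2 fold change -0.05). *Glrx5*, a mitochondrial glutaredoxin of iron-sulfur cluster assembly, was between 71.6 and 85.9 CPM in AHRfl and between 36.3 and 70.2 CPM in AHRmko mice, without overlap, as for 1.4% of all genes tested. Its log2 fold change was -0.63 (SE 0.137, edgeR unadjusted p = 0.000608, adjusted p = 0.606). The others were the sestrin *Sesn1* (-0.26), the methionine sulfoxide reductase *Msrb3* (0.20) and the thioredoxin-like *Txnl1* (-0.14), with *Nxn*, nucleoredoxin, at -0.18. Of the 6 peroxiredoxins, which thioredoxin and sulfiredoxin serve, 0 had an unadjusted p under 0.05 and 5 had a lower estimate.

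Of 30 other NRF2 target genes 29 were tested, and *Slc7a11*, with 4 to 10 counts, was not. Of the 29, 0 passed the adjusted threshold, and 4 had an unadjusted p under 0.05, 1 higher and 3 lower, against 6.61% of all genes tested. *Gsr*, glutathione reductase, had 30.2, 29.1, 26.6, 26.1 and 26.8 CPM in AHRfl mice and 20.9, 23.6, 20.8, 20.01 and 23.6 CPM in AHRmko mice. The groups did not overlap, which held for 2 of the 29 genes and 1.4% of all genes tested, and the log2 fold change was -0.35 (SE 0.0714, edgeR unadjusted p = 0.000259, adjusted p = 0.544). The glutathione transferases *Mgst1* (-0.31) and *Gstm1* (0.18) and the heme transporter *Slc48a1* (-0.16) were the other 3, and *Slc48a1* was the second gene without overlap. Among the 19 tested partners and regulators of NRF2 there were 2 with an unadjusted p under 0.05, again against 6.61%, the coactivator *Ep300* (0.29) and the related factor *Nfe2l1* (-0.21).

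Around *Txnip*, 12 relatives and glucose-responsive genes were tested and 0 had an unadjusted p under 0.05. Of 12 glucocorticoid-responsive genes there was 1, *Cdkn1a*, an inhibitor of cyclin-dependent kinases, at -0.72 (edgeR adjusted p = 0.683). Of 15 clock genes there were 4, against 6.61% of all genes tested, the output factors *Hlf* (0.51) and *Tef* (0.23), the period gene *Per2* (0.85) and the repressor *Nr1d1* (-0.48), with edgeR adjusted p-values between 0.606 and 0.707. Of the 6 tested genes of the AHR pathway, 0 had an unadjusted p under 0.05.

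The genes whose levels were most like those of each member were sought among 6968 genes at 10 CPM or more (6969 for *Hmox1*), by Pearson r over the 10 mice with genotype means removed. *Txn2* was most like the respiratory chain genes *Ndufb10* (r = 0.934) and *Uqcrb* (r = 0.917). *Txnip* was most like *Egfl7* (r = 0.956), a gene of endothelium, and *Pnpla2* (r = 0.945), which encodes adipose triglyceride lipase. *Srxn1* was most like the lysosomal membrane gene *Lamp1* (r = 0.959) and *B4galt1* (r = 0.956), and *Nfe2l2* was most like *Tmcc1* (r = 0.973) and *Ctr9* (r = 0.965). *Keap1* was most like *Atl2* (r = 0.985) and the nuclear receptor gene *Rora* (r = 0.984), and *Sqstm1* was most like *Aamdc* (r = 0.985) and the ubiquitin-conjugating enzyme *Cdc34* (r = 0.982). For *Txn1* the pair was *Eed* (r = 0.935) and *Gm2830* (r = 0.924), and for *Txnrd1* it was *Polr2d* (r = 0.958) and *Ankrd10* (r = 0.937). *Txnrd2* was most like *Zfp622* (r = 0.987) and *Nol7* (r = 0.982), and *Hmox1* was most like *Yipf3* (r = 0.961) and *Psenen* (r = 0.957). With genotype means kept, r was lower for some of these pairs, such as 0.601 for *Txnrd1* and *Polr2d* and 0.687 for *Srxn1* and *Lamp1*. These are the highest values of a search over all those genes with 10 mice and are given as a description.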

How the data were processed

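Total RNA from gastrocnemius was poly(A)-selected and sequenced in paired ends by the study. Per the submitters' processing notes, reads were trimmed with Trimmomatic 0.36 and mapped to GRCm38 with STAR 2.5.2b. The authors deposited raw counts of reads per Ensembl gene, without normalization, and all 10 columns, 1 per mouse, were used. The annotation release is not given in the sources used here.

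Names, positions and exon lengths came from GENCODE M21, which holds 49056 of the 49315 identifiers. Counts were filtered by filterByExpr (minimum count 10, minimum total 15), scaled by TMM and tested with edgeR 4.0.16 in R 4.3.3 (robust quasi-likelihood test, threshold 0.05). Log2 CPM used a prior count of 2. Correlations used 100000 permutations. The fit was tested on simulated data. Alternatives were DESeq2 1.42.0 with its defaults, limma-voom (limma 3.58.1), a surrogate variable (sva 3.50.0), other scalings, filters and covariates, a threshold of 0.1 and leaving out each mouse. For each list, up to 4 genes with an unadjusted p under 0.05 were named by smallest p, and *Nxn* was added after its values were seen. For each member, the 2 genes most like it were named. The members and lists were chosen with earlier results of these data known. A further overlap of exons, beside the 3 given, is not reported here.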

Additional observations from a re-analysis of the deposited data

Results flagged for a closer look

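*Txnrd1* in AHRfl-12 stood apart from the other AHRfl mice. At 85.2 CPM, its distance to the next mouse was 0.762 of the range of the 5 AHRfl mice in log2 CPM, above the critical value of 0.71 for 5 samples. It was the 1 such value among 32 sets of 5 values examined, all from the same mice, of which chance gives 1.6.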

How the results depend on the processing

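No member was called under any of the alternatives, which also used a threshold of 0.1. The count of all genes called was 1, and it was 10 with DESeq2 (defaults), 5 with no filter beyond 1 count in all, 2 with a slow-fibre score added to the model, and between 1 and 6 with each mouse left out, the 6 without AHRmko-34. Adding *Xist* detection (over 10 counts) to the model was chosen after seeing the data, and with it the count was 1, while the log2 fold change was 0.25 for *Srxn1*, -0.18 for *Txnip* and 0.03 for *Nfe2l2*, against 0.60, -0.33 and 0.14. With the slow-fibre score the log2 fold change was 0.31 for *Nfe2l2*, -0.06 for *Sqstm1*, -0.02 for *Keap1* and *Txn1* and -0.05 for *Txnrd2*. With 1 surrogate variable these were 0.27, -0.07, -0.03 for both and -0.06, and limma-voom gave 0.32 for *Srxn1* and 0.10 for *Hmox1*. Of 282 values of members and ratios over the alternatives, 10 changed sign, none of them of a called value. With single mice left out, the log2 fold change ran from -0.11 to 0.0069 for *Txn1* (0.0069 without AHRfl-12), from -0.071 to 0.32 for *Hmox1* (-0.071 without AHRmko-19), from -0.013 to 0.87 for *Srxn1* and from -0.13 to 0.42 for *Nfe2l2* (both lowest without AHRmko-34). The log2 ratio difference ran from -0.076 to 0.080 for *Txnrd2* to *Txn2*, with -0.036 without AHRfl-15, -0.0075 without AHRfl-33 and -0.076 without AHRmko-34, from -0.029 (without AHRmko-34) to 0.62 for *Srxn1* to *Txn1*, from -0.49 to -0.04 for *Txnip* to *Txn1* and from 0.03 to 0.36 for *Nfe2l2* to *Keap1*. With medians in place of means, it was -0.026 for *Txnrd2* to *Txn2* and 6.915e-05 for *Sqstm1* to *Keap1*. The cause was not tested. No paired analysis was possible because no animal number in the labels occurs in both genotypes. With 5 mice a group, the intervals of *Srxn1* and *Nfe2l2* allow changes of more than 1.5-fold in either direction.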
